A study of Arabidopsis thaliana with 10 samples.

Results

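The second RNA-seq experiment of the series, called Set2, compared seedlings after 2 h of jasmonate with untreated seedlings. It was chosen by its label and holds 6 of the 10 libraries of the series, 3 labelled Set2_2hJA and 3 labelled Set2_ctrl. All of them came from whole Arabidopsis thaliana seedlings that were 10 days old and wild type (Col-0). The JA seedlings stood for 2 h in a closed transparent container with gaseous methyl jasmonate, the volatile ester of jasmonic acid (JA), and the ctrl seedlings were untreated. The methods of the study describe growth on medium with sucrose in long days. The other 4 libraries form a pilot of the same age, accession and treatments, called Set1, with 2 libraries labelled Set1_2hJA and 2 labelled Set1_ctrl. The study describes the 3 replicates of each Set2 group as biological. The labels number them but do not say whether they came from separate cultures, so p-values measure the spread between these samples. Whole seedlings mix organs and cell types, and a change in the number of cells of a type cannot be told apart from a change of RNA per cell.

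In Arabidopsis the active hormone, a conjugate of JA with isoleucine, joins the F-box protein COI1 to a JAZ repressor, and the JAZ protein is then degraded. This frees the bHLH transcription factor MYC2 and its relatives, which bind G-box elements and activate genes of JA synthesis and turnover, wound defence and specialised metabolism. JAZ genes are themselves targets of MYC2, which forms a negative feedback, and JA is known in seedlings for restraining growth.

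The libraries held between 6333822 and 7774547 expected counts, and one of them stood apart. JA replicate 1 had counts in 29029 genes, against 23313 to 25681 in the other 5 libraries. In JA replicate 1, 2.61% of the counts fell on plastid genes, against 0.121% to 0.377% in the others. Over 4743 nuclear genes without a count in any Set1 library, JA replicate 1 had 9.67 counts per kb, and the other 5 had 0.240 to 0.919. A set of 6 pollen and seed genes, which a seedling should not express, summed to 70 counts in JA replicate 1, 3 and 5 counts in JA replicates 2 and 3, and 10, 5 and 1 counts in the ctrl libraries. Correlations of log2 levels between JA replicate 1 and the other libraries were 0.954 to 0.968, and those among the other 5 were at least 0.981. List counts without JA replicate 1 are therefore given where they differ. Summed levels of 14 root markers were 193, 212 and 221 CPM in the JA libraries and 198, 242 and 231 CPM in the ctrl libraries, and those of 5 stomatal markers were 51.1 to 55.1 CPM in the JA libraries and 46.2 to 58.1 CPM in the ctrl libraries. Of these markers only NRT2.1, a root nitrate transporter gene, was induced. CPM are counts per 1000000 counts of a library total scaled by TMM. The summed level of 5 mesophyll markers was 19318 CPM in JA replicate 1, 26287 and 26368 CPM in JA replicates 2 and 3 and between 23999 and 29844 CPM in the ctrl libraries.

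The first question was which genes responded to 2 h JA. A gene was called induced or repressed at a change of at least 2-fold where its p in edgeR's quasi-likelihood test, adjusted by Benjamini-Hochberg over all genes, did not exceed 0.05. The test covered 19259 genes and called 343 (1.78%) induced and 146 (0.758%) repressed. Without the fold threshold, 612 genes (3.18%) were higher and 494 (2.57%) were lower in JA. Induced genes changed more than repressed genes, with a median log2 fold change of 1.76 against -1.27, where the median of all genes tested was 0.01. A change of 4-fold or more was seen in 144 induced and 17 repressed genes. In each called gene the 3 JA libraries did not overlap the 3 ctrl libraries, and, as a background, over all genes tested all JA libraries lay above all ctrl libraries in 10.8% and below them in 12.7%.

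Without JA replicate 1, 268 genes (1.39%) were induced and 92 (0.476%) were repressed. Of the 343 induced genes, 259 were still called, and of the 146 repressed genes, 83 were. The 84 induced and 63 repressed genes that lost the call kept their direction. Of these, 56 induced and 34 repressed genes were still changed at least 2-fold and missed the adjusted p, while 17 and 23 passed the adjusted p below 2-fold. The induced genes that lost the call were expressed at a lower level, with a median of 8.74 CPM against 31.8 CPM in those that kept it. Among the repressed genes these medians were 19.5 CPM and 26.0 CPM. Subtraction of an even background of 6.95 counts per kb from JA replicate 1 left 346 induced and 151 repressed genes. With the replicate number as a block, 382 genes (1.98%) were induced and 167 (0.867%) repressed. That fit kept 340 of the 343 induced and 140 of the 146 repressed genes. Among the fits without a block that left out 1 library, fewest genes were called without ctrl replicate 2, with 235 induced and 71 repressed. Whichever of the 6 libraries was left out, 212 of the 343 induced genes (61.8%) and 52 of the 146 repressed genes (35.6%) were called.

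**Figure D1:**
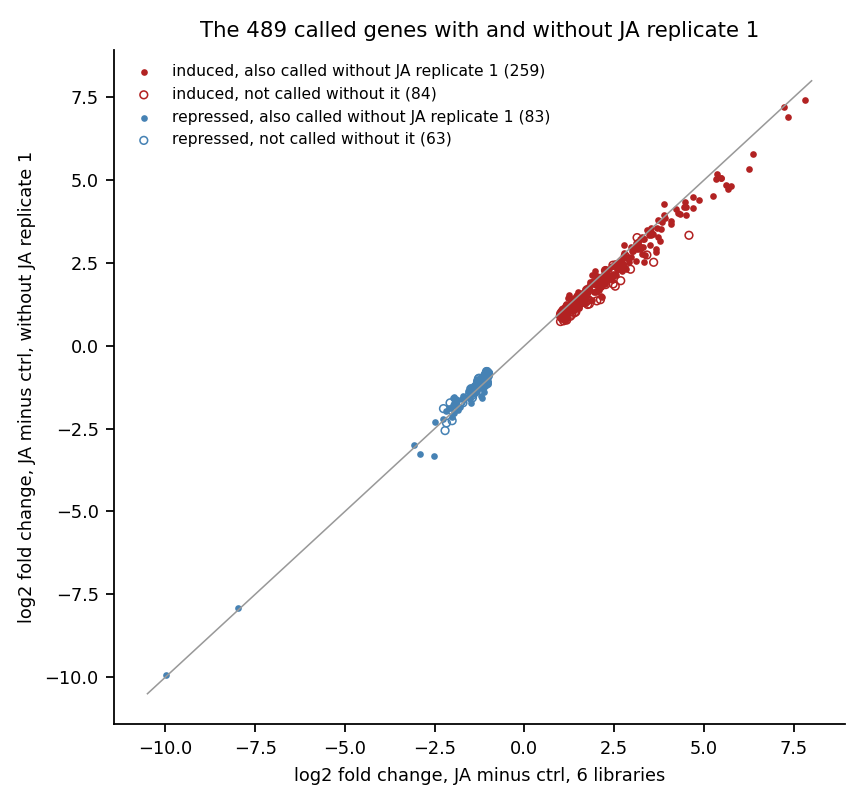
Log2 fold change (JA minus ctrl) of the 489 called genes with all 6 libraries (x axis) and without JA replicate 1 (y axis), 1 point per gene, coloured by whether the call was kept. The 259 induced and 83 repressed genes that kept the call spread over the whole range, and the 84 and 63 that lost it lie on the same side of 0 and mostly closer to it.

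The same libraries were often the highest or lowest of their group among the called genes. JA replicate 1 was the highest JA library in 253 of the 343 induced genes (73.8%, against 34.5% of all genes tested), and JA replicate 3 was the lowest in 255 (74.3%, against 31.4%). Among the repressed genes, JA replicate 1 was the lowest JA library in 87 of 146 (59.6%, against 39.4%), and ctrl replicate 2 was the highest ctrl library in 102 (69.9%, against 31.1%). Within the numbered pairs, the median log2 difference of the induced genes was 1.83 in pair 1, 1.71 in pair 2 and 1.53 in pair 3. For the repressed genes it was -1.35, -1.35 and -1.15.

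JAZ repressors and JA synthesis genes were among the induced genes. To show the DNA in front of genes of both groups, the 250 bases before the annotated start of JAZ7, JAZ13, AOS and AOC1 are given 5′ to 3′ in the direction of transcription (RefSeq, TAIR10.1). These 4 were chosen because they carry the G-box CACGTG, which reads the same on both strands, or its variant CACGTT, in capitals. JAZ7 lies on the plus strand of chromosome 2 (chr2:14572780-14573029), JAZ13 on the minus strand of chromosome 3 (chr3:7879811-7880060), AOC1 on the plus strand of chromosome 3 (chr3:9403529-9403778) and AOS on the minus strand of chromosome 5 (chr5:17099596-17099845).
JAZ7: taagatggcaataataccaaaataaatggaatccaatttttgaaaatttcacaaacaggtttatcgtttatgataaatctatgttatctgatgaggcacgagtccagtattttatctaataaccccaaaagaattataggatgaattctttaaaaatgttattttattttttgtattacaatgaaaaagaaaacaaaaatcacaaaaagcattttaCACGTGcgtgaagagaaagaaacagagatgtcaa
JAZ13: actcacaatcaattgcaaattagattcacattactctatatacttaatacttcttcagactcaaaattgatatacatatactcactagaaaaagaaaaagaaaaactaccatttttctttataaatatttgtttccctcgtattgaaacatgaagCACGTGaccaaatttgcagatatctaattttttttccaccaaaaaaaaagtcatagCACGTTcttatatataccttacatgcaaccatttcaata
AOS: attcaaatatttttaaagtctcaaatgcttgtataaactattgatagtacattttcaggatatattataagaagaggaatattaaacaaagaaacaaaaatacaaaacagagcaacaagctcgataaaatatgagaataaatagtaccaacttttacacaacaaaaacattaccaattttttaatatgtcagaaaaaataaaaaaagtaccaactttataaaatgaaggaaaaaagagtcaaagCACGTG
AOC1: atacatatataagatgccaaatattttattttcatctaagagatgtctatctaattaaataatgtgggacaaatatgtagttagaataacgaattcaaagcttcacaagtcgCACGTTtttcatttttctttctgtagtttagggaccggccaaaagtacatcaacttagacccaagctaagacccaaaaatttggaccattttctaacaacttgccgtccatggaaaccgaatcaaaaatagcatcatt
The G-box begins 34 bases before the start of JAZ7, 95 before that of JAZ13 and 6 before that of AOS, and a CACGTT lies 39 bases before the start of JAZ13 and 138 before that of AOC1. JAZ9 and OPR3, which were also induced, held neither motif in this window.

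Over windows of 250 bases before to 50 bases after the start, CACGTG was found for 80 of the 343 induced genes (23.3%, exact 95% interval 18.95% to 28.2%) and 19 of the 146 repressed genes (13.0%, 8.02% to 19.6%). It was found for 8.74% of the 19175 tested genes with a window. With CACGTT or its reverse complement AACGTG counted too, the shares were 43.7% of the induced genes, 15.8% of the repressed genes and 16.8% of all tested genes. Of the 20 induced JAZ and JA synthesis genes, 5 held CACGTG and 12 held at least 1 of these strings. A match is a string of letters and does not show that a factor binds there.

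Of 12 JAZ genes tested, 10 were induced (9 without JA replicate 1), against 1.78% of all genes tested, with a median log2 fold change of 3.14. JAZ9 (AT1G70700) had 814, 779 and 528 CPM in the JA libraries, against 37.8, 32.1 and 26.1 CPM in the ctrl libraries. Its log2 fold change was 4.46 ± 0.22 (SE, adjusted p = 6.16e-05), and all JA libraries lay far above all ctrl libraries. JAZ5 (AT1G17380) had 105, 67.1 and 33.1 CPM in JA, against 2.28, 2.56 and 2.18 CPM in ctrl, so that the JA libraries differed by more among themselves than the ctrl libraries did (log2 fold change 4.86 ± 0.44, adjusted p = 0.000419). JAZ13 (AT3G22275), a divergent member that lacks a canonical degron, had 33.7, 12.5 and 5.80 CPM in JA, against 0.152, 0 and 0.780 CPM in ctrl (log2 fold change 5.76 ± 0.91, adjusted p = 0.00751). It overlaps the gene AT3G22270 in the annotation, and its reads may not all be its own. JAZ7 (AT2G34600) was low, with 8.57, 4.98 and 1.72 CPM in JA and 0.455, 0.302 and 0.312 CPM in ctrl (log2 fold change 3.79, adjusted p = 0.0141), and without ctrl replicate 2 its adjusted p was 0.0774. JAZ10, JAZ1, JAZ6, JAZ2 and JAZ3 rose with log2 fold changes of 3.67, 3.27, 3.01, 2.79 and 2.01. JAZ12 (AT5G20900) had 107, 101 and 79.5 CPM in JA and 50.8, 48.0 and 38.4 CPM in ctrl (log2 fold change 1.06, adjusted p = 0.00456), and it overlaps AT5G03235 and AT5G20910. At 0.98 without JA replicate 1 and 0.95 without ctrl replicate 3, JAZ12 fell short of the 2-fold threshold. JAZ11 (12.8, 12.2 and 12.2 CPM in JA, 13.0, 10.6 and 15.4 CPM in ctrl) and JAZ4 (5.14, 1.06 and 2.98 CPM in JA, 0.910, 1.66 and 2.81 CPM in ctrl) were not called, and in both the groups overlapped. JAZ8 was too low to be tested. The median log2 pair difference over the JAZ list was 3.22 in pair 1, 2.97 in pair 2 and 2.15 in pair 3.

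Of 19 tested genes of JA synthesis, 10 were induced (9 without JA replicate 1, where JMT lost the call). LOX3 (AT1G17420), a lipoxygenase that starts the pathway in the plastid, had 177, 76.0 and 63.3 CPM in JA, against 14.1, 10.1 and 6.87 CPM in ctrl (log2 fold change 3.35 ± 0.42, adjusted p = 0.00235). Its relatives LOX2 and LOX4 rose by 2.98 and 2.83 on the log2 scale. AOS (AT5G42650), allene oxide synthase, had 1224, 1154 and 798 CPM in JA, against 137, 87.2 and 62.7 CPM in ctrl (log2 fold change 3.47 ± 0.30, adjusted p = 0.000359). Its level in each JA library was several times that of any ctrl library. AOC1 (AT3G25760), an allene oxide cyclase, had 446, 439 and 343 CPM in JA, against 32.6, 26.4 and 22.3 CPM in ctrl (log2 fold change 3.92 ± 0.18, adjusted p = 6.16e-05). Its counts were not whole in 4 libraries, which marks reads shared with other genes, and AOC2 and AOC3 rose by 3.28 and 1.24 on the log2 scale. OPR3 (AT2G06050), the peroxisomal reductase of the next step, had 509, 329.8 and 276 CPM in JA, against 32.3, 22.8 and 24.0 CPM in ctrl (log2 fold change 3.82 ± 0.26, adjusted p = 0.00014). OPCL1, the ligase that prepares the product for beta-oxidation, rose by 2.97. The desaturase gene FAD7, at the head of the route, was not called, with 219, 236 and 252 CPM in JA and 297, 289 and 248 CPM in ctrl.

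Enzymes that inactivate JA or its isoleucine conjugate were induced together with synthesis, in 7 of 9 genes tested (6 without JA replicate 1), with a median log2 fold change of 3.33. JAO2 (AT5G05600), a JA hydroxylase, had 309, 211 and 167 CPM in JA, against 11.8, 9.35 and 10.1 CPM in ctrl (log2 fold change 4.45 ± 0.25, adjusted p = 7.19e-05). ILL6 (AT1G44350), an amidohydrolase, had 171, 113 and 78.2 CPM in JA, against 7.59, 5.58 and 4.84 CPM in ctrl (log2 fold change 4.33, adjusted p = 0.000158). ILL5 (AT1G51780), of the same hydrolase family by annotation, had 16.4, 6.04 and 10.8 CPM in JA and 1 count in all ctrl libraries together, a ratio of 225 with a 95% counting interval from 40.1 to 8934. CYP94C1, IAR3 and CYP94B1 rose by 3.33, 2.67 and 2.17 on the log2 scale, and CYP94B1 lost the call without any 1 of the ctrl libraries. JRG21 (AT3G55970), a further hydroxylase, had 21.5, 6.34 and 3.76 CPM in JA and 2.12, 0.151 and 0.312 CPM in ctrl (log2 fold change 3.60, adjusted p = 0.0441), and it kept the call only without ctrl replicate 1 or JA replicate 3 (adjusted p = 0.132 without JA replicate 1). CYP94B3 was not called, and neither was the sulfotransferase gene ST2A (12.2, 9.05 and 7.21 CPM in JA, 3.94, 5.28 and 5.31 CPM in ctrl, adjusted p = 0.061). Without ctrl replicate 2, and likewise without ctrl replicate 3, 5 turnover genes were induced.

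MYC2 (AT1G32640) had 235, 208 and 136 CPM in JA, against 30.0, 12.7 and 7.65 CPM in ctrl (log2 fold change 3.52 ± 0.44, adjusted p = 0.00229). In all 6 libraries its counts were not whole, and the annotation places AT1G32630 over it. JAM1 (AT2G46510), a bHLH repressor that opposes MYC2, had 77.8, 50.1 and 30.4 CPM in JA and 19.7, 17.8 and 17.3 CPM in ctrl (log2 fold change 1.53, adjusted p = 0.0162), and lost the call without ctrl replicate 2 (adjusted p = 0.0818) or ctrl replicate 3 (0.051). MYC3 had 60.5, 72.1 and 55.4 CPM in JA and 51.7, 48.1 and 42.0 CPM in ctrl and was not called (log2 fold change 0.41, adjusted p = 0.133). The study chose its MYC2 core genes partly on these libraries, so that they are no independent evidence of a direction, and 155 of the 174 tested were induced (134 without JA replicate 1 and 121 without ctrl replicate 2).

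**Figure D2:**
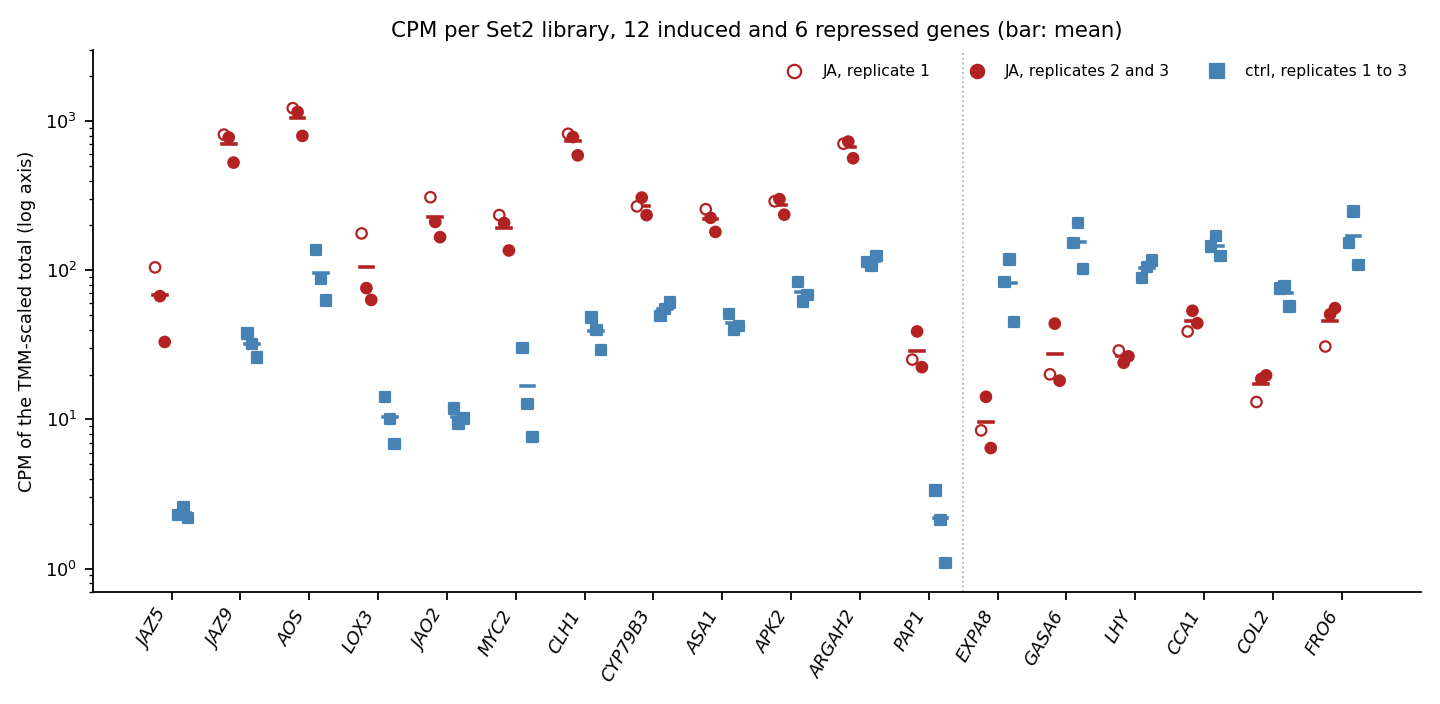
CPM (log axis) of 12 induced and 6 repressed genes in each library, with JA to the left of ctrl and JA replicate 1 drawn as an open circle. For every gene the 3 JA points lie on one side of the 3 ctrl points, and for JAZ5, LOX3 and MYC2 the open circle is the highest.

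JA defence is divided in Arabidopsis into a MYC branch with wound markers and an ERF branch that needs ethylene as well. Of 5 wound markers, 4 were induced (3 without JA replicate 1). CLH1 (AT1G19670), a chlorophyllase, had 824, 784 and 591 CPM in JA, against 48.2, 39.8 and 29.2 CPM in ctrl (log2 fold change 4.23 ± 0.22, adjusted p = 6.16e-05). CORI3 (AT4G23600), a cystine lyase, had 406, 476 and 381 CPM in JA, against 45.2, 29.9 and 33.5 CPM in ctrl (log2 fold change 3.54 ± 0.18, adjusted p = 6.16e-05). TAT3 (AT2G24850), a tyrosine aminotransferase, had 64.6, 18.4 and 60.1 CPM in JA and 2.28, 0.302 and 0.936 CPM in ctrl (log2 fold change 5.33, adjusted p = 0.00165), with replicate 2 the lowest library in both groups. The vegetative storage protein genes varied between libraries. VSP1 (AT5G24780) had 159.8, 146 and 52.7 CPM in JA, against 18.7, 18.1 and 1.72 CPM in ctrl (log2 fold change 3.22, adjusted p = 0.0222, and 0.0582 without JA replicate 1), and it also lost the call without JA replicate 2, ctrl replicate 1 or ctrl replicate 2. VSP2 (AT5G24770) had 497, 551 and 135 CPM in JA, against 85.3, 81.7 and 10.3 CPM in ctrl, where replicate 3 was the lowest library of both groups, and it was not called (log2 fold change 2.74, adjusted p = 0.0616). It was called with the replicate number as a block (adjusted p = 0.000237), without JA replicate 3 (adjusted p = 0.0418), with no filter on low counts and with organelle and rRNA genes removed. In the ERF branch, 1 of 7 tested genes was induced. This was ORA59 (AT1G06160), the regulator of the branch, with 15.4, 15.5 and 10.7 CPM in JA and 1.82, 2.11 and 2.50 CPM in ctrl (log2 fold change 2.69 ± 0.25, adjusted p = 0.000435). The marker PDF1.2, a defensin, was not called, with 7.95, 10.3 and 10.2 CPM in JA and 19.0, 26.2 and 2.65 CPM in ctrl (log2 fold change -0.76, adjusted p = 0.544), and the median of the branch was -0.08. Without ctrl replicate 3, 3 genes of the branch were called repressed.

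Glucosinolates are sulfur-rich defence compounds of the Brassicaceae, made from tryptophan (indole type) or from chain-extended methionine (aliphatic type). Genes at steps along the route to the indole type were induced: 4 of 14 tested genes of sulfate assimilation and glutathione, 7 of 10 of tryptophan synthesis and 7 of 15 indole glucosinolate enzymes (8 without JA replicate 1). These 18 calls were made whichever library was left out. Among the sulfur genes, APS3 (AT4G14680), an ATP sulfurylase, had 98.5, 133 and 102 CPM in JA, against 32.0, 27.4 and 22.6 CPM in ctrl (log2 fold change 2.02 ± 0.17, adjusted p = 0.000321). APK2 (AT4G39940), a kinase that makes the sulfate donor, had 291, 300.2 and 236 CPM in JA, against 83.3, 62.0 and 68.5 CPM in ctrl (log2 fold change 1.95 ± 0.15, adjusted p = 0.000205). APK1 and GSH2, the glutathione synthetase gene, rose by 1.46 and 1.22. A second sulfurylase gene, APS1, (666, 706 and 664 CPM in JA, 419, 426 and 419.9 CPM in ctrl) and the sulfite reductase gene SIR (667, 686 and 736 CPM in JA, 432, 392 and 435 CPM in ctrl) passed the adjusted p at a change below 2-fold.

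Genes of tryptophan synthesis were induced in 7 of 10 cases. ASA1 (AT5G05730), the alpha subunit of anthranilate synthase, had 257, 225 and 181 CPM in JA, against 51.1, 39.8 and 42.4 CPM in ctrl (log2 fold change 2.31 ± 0.16, adjusted p = 0.000147). PAI2 (AT5G05590), an isomerase, had 37.2, 44.2 and 37.9 CPM in JA and 7.13, 6.94 and 11.2 CPM in ctrl (log2 fold change 2.24, adjusted p = 0.000321). Both overlap neighbouring genes, and their counts were not whole. TSB1 (AT5G54810), the beta subunit of tryptophan synthase, had 453, 383 and 384 CPM in JA and 149, 117 and 134 CPM in ctrl (log2 fold change 1.61, adjusted p = 0.000347). AT2G04400, ASB1, TSB2 and TRP3 rose by 1.58, 1.47, 1.35 and 1.24, and TRP1 passed the adjusted p with a log2 fold change of 0.92.

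In the indole core pathway, CYP79B3 (AT2G22330) and CYP79B2 (AT4G39950), which convert tryptophan to its aldoxime, had 268, 308 and 235 CPM and 379.5, 358 and 327 CPM in JA, against 49.5, 55.2 and 61.0 CPM and 102, 90.6 and 114 CPM in ctrl. Their log2 fold changes were 2.29 ± 0.14 (adjusted p = 0.000114) and 1.80 ± 0.13 (adjusted p = 0.000158). CYP83B1 (AT4G31500), the next enzyme, had 723, 666 and 617 CPM in JA, against 184, 159 and 182 CPM in ctrl (log2 fold change 1.94 ± 0.13, adjusted p = 0.000133). UGT74B1, GGP1 and SUR1, which act after it, rose by 1.56, 1.55 and 1.32, and the sulfotransferase gene SOT16 rose by 1.76. GSTF9 had 1274, 1470.0 and 1353 CPM in JA and 739, 658 and 659.6 CPM in ctrl, just below the 2-fold threshold with all libraries (log2 fold change 0.99) and above it without JA replicate 1 (1.04).

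Of 17 aliphatic enzyme genes tested, 6 were induced, and 13 passed the adjusted p when no fold was required, all of them higher in JA. In the indole list 9 of 15 passed it. The median log2 fold change was 0.80, with 17 of 17 positive, and that of the indole list was 0.99. The lists were not tested against each other. GSTF11 (AT3G03190) had 28.3, 33.0 and 24.3 CPM in JA and 9.10, 10.3 and 5.62 CPM in ctrl (log2 fold change 1.77, adjusted p = 0.00193), and it overlaps AT3G03200. IPMI1 (AT3G58990), an isomerase of chain extension, had 181, 166 and 179 CPM in JA, against 65.7, 46.3 and 50.2 CPM in ctrl (log2 fold change 1.70 ± 0.15, adjusted p = 0.000359). SOT17 (AT1G18590) had 134, 129.9 and 135 CPM in JA and 49.5, 34.2 and 46.7 CPM in ctrl (log2 fold change 1.61, adjusted p = 0.000419). BAT5, CYP79F2 and CYP79F1 were close to the threshold at 1.13, 1.04 and 1.01 (the counts of the CYP79F copies were not whole), and without ctrl replicate 2 the induced aliphatic genes were IPMI1, GSTF11 and SOT17. Of the MYB regulators of both types, none of 6 was induced with all libraries, and 1 was without ctrl replicate 1 or JA replicate 3. MYB34, an activator of the indole type, had 132, 115 and 90.9 CPM in JA and 70.4, 61.8 and 50.6 CPM in ctrl (log2 fold change 0.89, adjusted p = 0.0169). MYB28, an activator of the aliphatic type, had 35.6, 59.7 and 65.5 CPM in JA and 83.9, 71.3 and 70.1 CPM in ctrl and was not called (log2 fold change -0.49, adjusted p = 0.249).

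**Figure D3:**
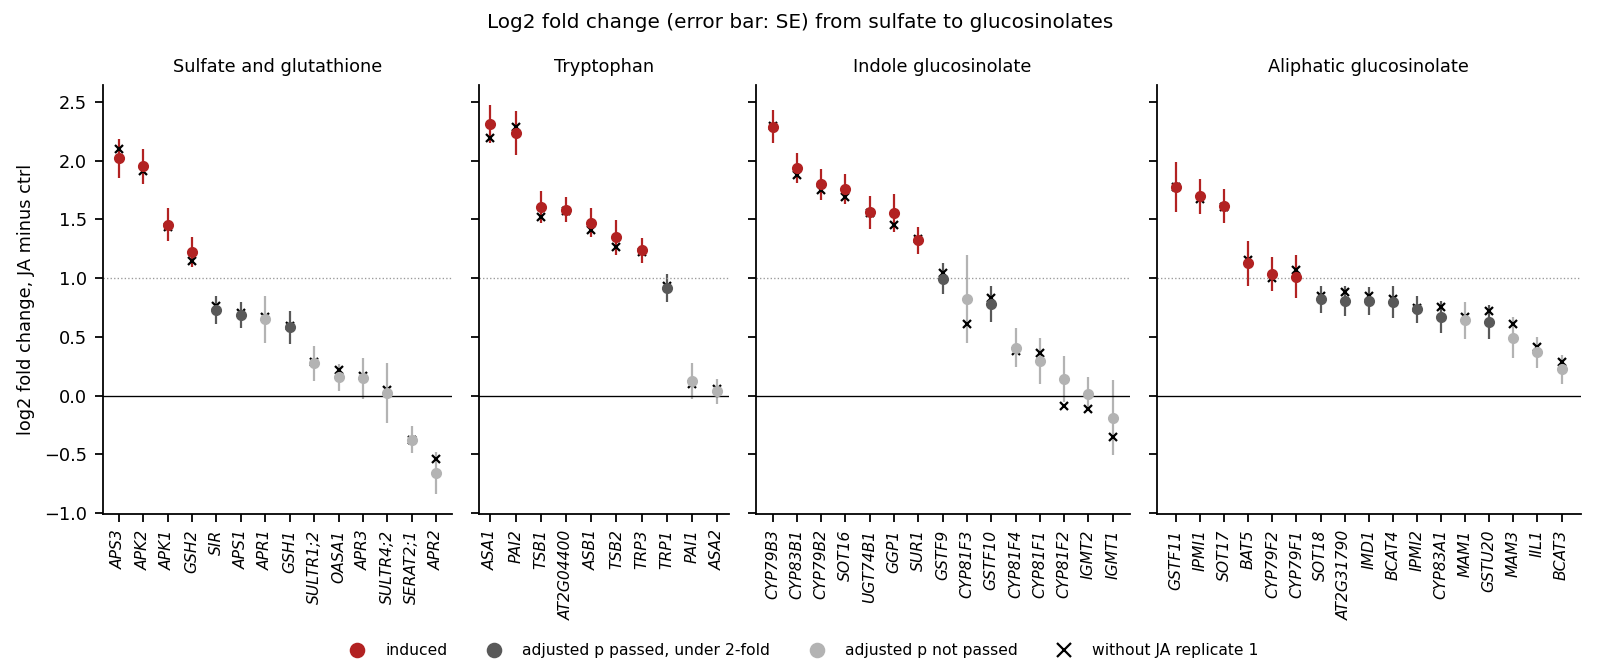
Log2 fold change (JA minus ctrl, bars of 1 SE) of the tested genes of sulfate assimilation and glutathione, tryptophan synthesis, indole and aliphatic glucosinolate enzymes, with crosses for the values without JA replicate 1. Most crosses lie close to the points, those of CYP81F3 and CYP81F2 being exceptions, and the indole and tryptophan panels reach higher than the aliphatic one.

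ER bodies are compartments of Brassicaceae cells that store beta-glucosidases. BGLU18 (AT1G52400), the beta-glucosidase of wound-induced ER bodies, had 962, 1288 and 685 CPM in JA, against 208, 133 and 86.1 CPM in ctrl (log2 fold change 2.78 ± 0.34, adjusted p = 0.00202). TSA1 (AT1G52410), a protein of the same bodies, had 184, 192 and 126 CPM in JA, against 37.2, 28.8 and 22.9 CPM in ctrl (log2 fold change 2.49 ± 0.22, adjusted p = 0.000366). NAI1 (AT2G22770), the bHLH regulator of ER bodies, had 66.3, 41.2 and 38.1 CPM in JA and 18.1, 17.6 and 20.4 CPM in ctrl (log2 fold change 1.38, adjusted p = 0.00589). PYK10, the abundant constitutive glucosidase, was not called at 2095, 1965 and 2176 CPM in JA and 1793, 2023 and 2087 CPM in ctrl. In all, 5 of 10 ER body genes were induced, and without JA replicate 1 the membrane protein genes MEB1 and MEB2 were below 2-fold (log2 fold changes 0.91 and 0.82). Neither was called without ctrl replicate 1, and MEB2 was not called without ctrl replicate 2. BGLU18, TSA1 and NAI1 were called whichever library was left out. Of 8 genes for myrosinases and their partners, MBP2 and MBP1 were induced (log2 fold changes 2.59 and 2.26), and neither was without ctrl replicate 2. MBP1 also lost the call without JA replicate 1 (adjusted p = 0.0768) and without JA replicate 2 (adjusted p = 0.0818).

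Of 5 tested genes for volatile compounds, 4 were induced (3 without JA replicate 1). FAMT (AT3G44860), a carboxyl methyltransferase that makes methyl farnesoate in vitro, had 468, 199 and 184 CPM in JA, against 6.07, 3.17 and 1.09 CPM in ctrl (log2 fold change 6.35 ± 0.56, adjusted p = 0.00039). HPL1 (AT4G15440), a hydroperoxide lyase of green leaf volatiles, had 37.8, 46.6 and 29.2 CPM in JA, against 6.98, 3.92 and 1.87 CPM in ctrl (log2 fold change 3.14 ± 0.35, adjusted p = 0.00119). The terpene synthase genes spread widely between libraries: TPS04 (AT1G61120) had 63.0, 9.81 and 15.2 CPM in JA and 3.49, 0.151 and 0 CPM in ctrl, and TPS03 (AT4G16740) had 24.2, 13.4 and 2.35 CPM in JA and 0.455, 0.302 and 0 CPM in ctrl. Both were called with all libraries (adjusted p = 0.0302 and 0.0127), TPS04 was not called without JA replicate 1 (adjusted p = 0.0895) or ctrl replicate 3 (0.0780), and neither was called without ctrl replicate 2 (0.134 and 0.0698).

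Of 11 ascorbate genes, 4 were induced (3 without JA replicate 1), against 1.78% of all genes tested. VTC5 (AT5G55120), of the committed step of synthesis, had 169.5, 150.0 and 116 CPM in JA and 54.0, 52.8 and 49.8 CPM in ctrl (log2 fold change 1.48, adjusted p = 0.000686), and VTC1 (AT2G39770) had 379.6, 355 and 284 CPM in JA and 136, 128 and 131 CPM in ctrl (log2 fold change 1.37, adjusted p = 0.000639). VTC2, the paralogue of VTC5, was not called, and its groups overlapped (301, 355 and 305 CPM in JA, 441, 441 and 349.7 CPM in ctrl). DHAR1 (AT1G19570), which recycles ascorbate, had 637, 776 and 493 CPM in JA and 268, 275 and 209 CPM in ctrl (log2 fold change 1.34, adjusted p = 0.00393). MDHAR lost its call when any library other than JA replicate 3 was left out.

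PAP1 (AT1G56650), the MYB activator of anthocyanin synthesis, had 25.2, 38.9 and 22.4 CPM in JA, against 3.34, 2.11 and 1.09 CPM in ctrl (log2 fold change 3.71 ± 0.34, adjusted p = 0.000423), and was called whichever library was left out. Of 12 tested enzyme genes, AT5MAT and UF3GT were induced with all libraries, and none was induced when any library other than JA replicate 1 was left out. Without JA replicate 1 there were 6. The other 4, chosen after their values were seen, were DFR, LDOX, TT19 and AT4G14090. DFR (AT5G42800), dihydroflavonol reductase, had 19.0, 61.4 and 51.1 CPM in JA, against 24.3, 24.3 and 16.5 CPM in ctrl, so that JA replicate 1 lay among the ctrl libraries and JA replicates 2 and 3 above them. Its log2 fold change was 1.01 (adjusted p = 0.178) with all libraries and 1.37 (adjusted p = 0.00729) without JA replicate 1. LDOX had 22.5, 60.8 and 49.2 CPM in JA and 29.3, 27.9 and 18.4 CPM in ctrl, and TT19 had 12.2, 40.3 and 29.0 CPM in JA and 15.2, 12.1 and 9.36 CPM in ctrl. Earlier enzymes were not called: CHS, chalcone synthase, had 221, 346 and 301 CPM in JA and 159, 249 and 262 CPM in ctrl (adjusted p = 0.418). The root iron uptake genes IRT1 (10.9, 38.6 and 44.7 CPM in JA, 22.6, 17.5 and 24.3 CPM in ctrl) and FRO2 (6.36, 20.2 and 24.9 CPM in JA, 13.8, 9.05 and 11.9 CPM in ctrl) were likewise lowest in JA replicate 1 and were called neither with JA replicate 1 nor without it, at log2 fold changes of 0.96 and 0.96 without it.

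ERF2 (AT5G47220), a transcription factor, had 40.0, 42.5 and 27.9 CPM in JA, against 5.77, 5.13 and 6.87 CPM in ctrl (log2 fold change 2.64 ± 0.20, adjusted p = 0.000179). ANAC019 (AT1G52890), a NAC factor, had 15.2, 8.30 and 6.90 CPM in JA and 0.607, 1.51 and 0.156 CPM in ctrl (log2 fold change 3.71, adjusted p = 0.00573), and its relative ANAC072 rose by 1.41, a call lost without ctrl replicate 1 (adjusted p = 0.0512). CML39 (AT1G76640), a calmodulin-like calcium sensor, had 24.7, 8.15 and 5.80 CPM in JA and 0.152, 0.302 and 0 CPM in ctrl, a ratio of summed levels of 90.5 with a 95% counting interval from 30.7 to 442. MAPKKK21 (AT4G36950) had 31.9, 13.1 and 4.23 CPM in JA and 0.303, 0.302 and 0.312 CPM in ctrl (log2 fold change 5.68 ± 0.88, adjusted p = 0.00676), and MAPKKK17, of the same clade of kinases, rose by 1.93, a call lost without ctrl replicate 1 (adjusted p = 0.0531) or ctrl replicate 2 (0.0702). In CML39 and MAPKKK21, JA replicate 1 was the highest JA library by more than 2-fold, and without it the log2 fold changes were 5.35 and 4.75, still called. ARGAH2 (AT4G08870), an arginase, had 707, 731 and 565 CPM in JA, against 113, 108 and 125 CPM in ctrl (log2 fold change 2.53 ± 0.14, adjusted p = 8.06e-05). It was the only induced gene of 11 for arginine, polyamines and proline. EDS5 (AT4G39030), a transporter needed for salicylic acid synthesis, was the only one of 13 salicylic acid genes to be induced, with 38.5, 32.3 and 28.1 CPM in JA and 11.5, 11.2 and 9.83 CPM in ctrl (log2 fold change 1.61, adjusted p = 0.00048), and it overlaps AT4G39040.

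Among genes outside the lists, CSLA01 (AT4G16590), of the cellulose synthase-like family, had 34.0, 46.6 and 18.8 CPM in JA and 0.607, 0 and 0 CPM in ctrl (log2 fold change 7.22, adjusted p = 0.000389). AT1G73325, annotated as a Kunitz-type protease inhibitor, had 37.8, 32.9 and 20.1 CPM in JA and 1.06, 0.754 and 0.312 CPM in ctrl (log2 fold change 5.38 ± 0.37, adjusted p = 0.00014). AT1G53885 and AT1G53903 held the same values, 43.8, 30.2 and 15.7 CPM in JA and 1.21, 0.603 and 0.156 CPM in ctrl, and none of these counts tells the 2 copies apart. UGT76E12 (18.5, 7.39 and 5.02 CPM in JA, 0, 0.754 and 0 CPM in ctrl) overlaps AT3G46658. Grouped by symbol, cytochrome P450 genes held 11 induced and 1 repressed of 150 tested, UDP-glycosyltransferases 4 and 0 of 47, glutathione S-transferases 3 and 0 of 40, MYB genes 3 and 0 of 71 and cellulose synthase-like genes 4 and 2 of 22. These families are among those with at least 10 tested and at least 3 called members, so they were picked by their calls. Over all genes tested, 1.78% were induced and 0.758% repressed. Without JA replicate 1, glutathione S-transferases held 5 induced genes, cytochrome P450 genes 10 induced and 1 repressed, and cellulose synthase-like genes 3 and 1.

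Of 6 cold genes tested, 2 were induced, and all 6 had a positive log2 fold change, with a median of 0.83. COR15A (66.1, 107 and 43.6 CPM in JA, 19.7, 19.0 and 6.40 CPM in ctrl, adjusted p = 0.0147) and COR15B were the induced genes, and without ctrl replicate 2 neither was called. COR15B also lost the call without JA replicate 1 (adjusted p = 0.0757), and 1 gene of the list was called without JA replicate 2. RD29A was the only induced gene of 21 of the abscisic acid list, with 189, 169 and 135 CPM in JA and 70.4, 62.6 and 41.0 CPM in ctrl (log2 fold change 1.50, adjusted p = 0.00365). None of 17 WRKY genes, 10 genes of pattern immunity and camalexin, 17 of lignin and phenylpropanoid synthesis, 13 of ethylene, 9 type-A cytokinin response regulators, 4 heat shock, 6 ER chaperone and 8 low oxygen genes was called with all libraries. With the replicate block 1 WRKY gene was induced, as was 1 without ctrl replicate 3 or JA replicate 3. Of the pattern immunity and camalexin genes, 2 were induced without ctrl replicate 1 and 1 without JA replicate 2 or JA replicate 3. RBOHD, an oxidase of the immune response, passed the adjusted p below 2-fold, with 143, 132 and 119 CPM in JA and 75.3, 59.1 and 67.9 CPM in ctrl (log2 fold change 0.96, adjusted p = 0.00325).

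**Figure D4:**
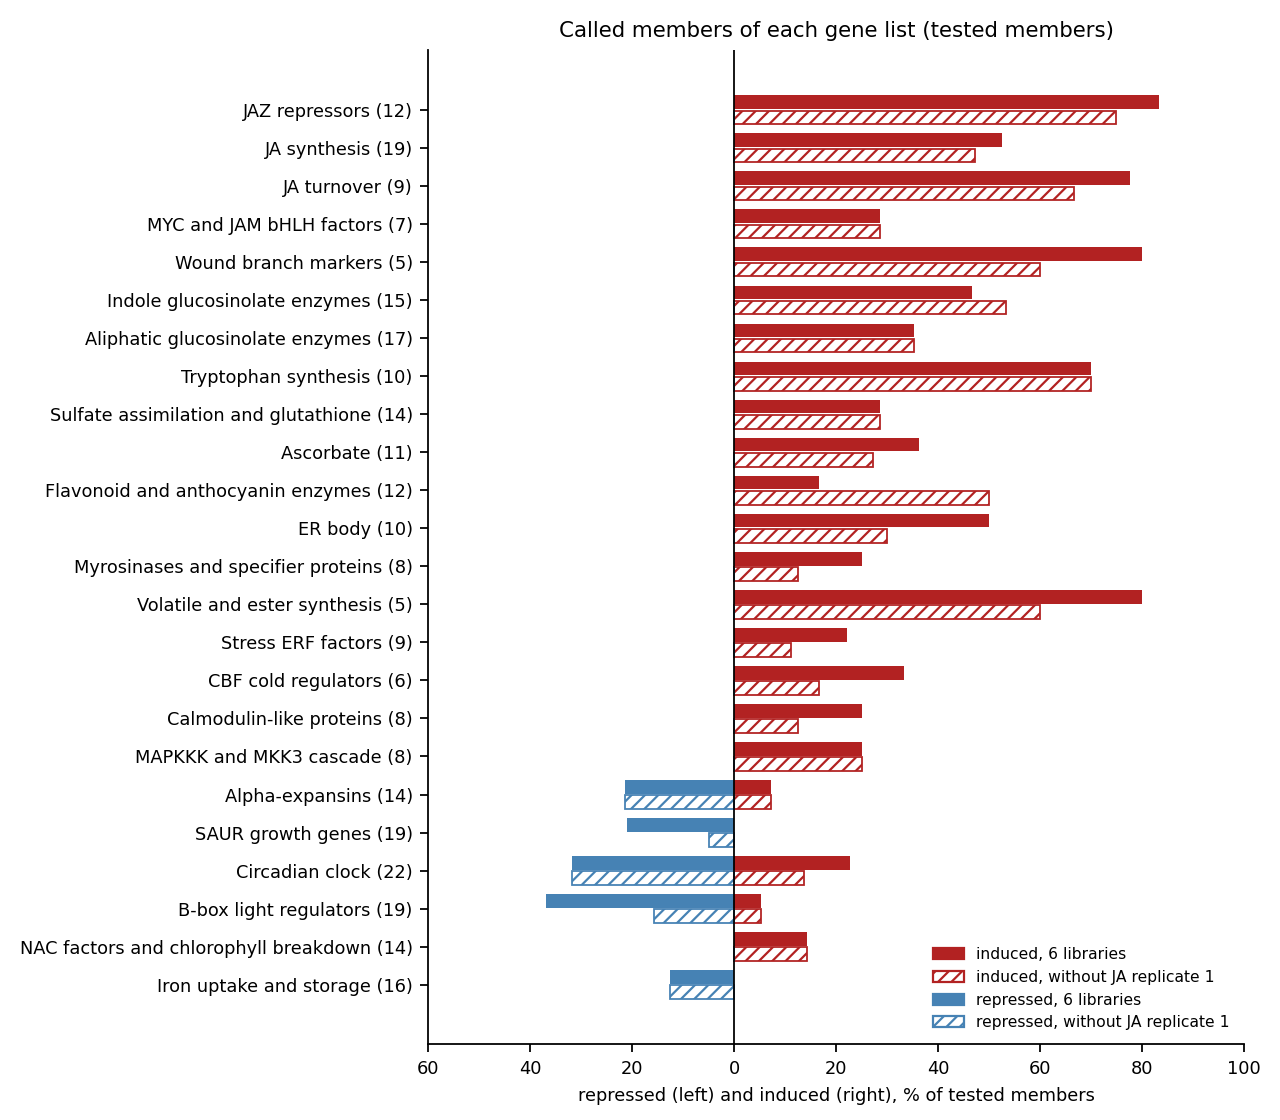
Percent of the tested members that were induced (right of 0) or repressed (left of 0), for the gene lists with at least 2 called members in a direction, with all 6 libraries (solid bars) and without JA replicate 1 (hatched bars). With all libraries, JAZ repressors, wound markers, volatile synthesis, JA turnover, tryptophan synthesis and JA synthesis have the largest induced shares, against 1.78% of all genes tested. Repressed genes were 0.758% of all genes tested. The lists were chosen with earlier results of these data known, so their shares are no independent evidence. Flavonoid and anthocyanin enzymes are the list whose induced share grows most without JA replicate 1.

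Growth genes were found among the repressed genes, which made up 0.758% of all genes tested. EXPA8 (AT2G40610), an alpha-expansin that loosens cell walls, had 8.44, 14.2 and 6.43 CPM in JA, against 83.3, 118 and 45.1 CPM in ctrl (log2 fold change -3.09 ± 0.38, adjusted p = 0.00212). EXPA1 (AT1G69530) had 100.1, 155 and 141 CPM in JA, against 372, 475 and 314 CPM in ctrl (log2 fold change -1.55 ± 0.20, adjusted p = 0.00291). Of 14 alpha-expansins tested, 3 fell, the other being EXPA11 (-1.06, and -0.91 without ctrl replicate 2), and EXPA16 rose (6.24, 17.5 and 7.84 CPM in JA, 3.49, 1.81 and 2.65 CPM in ctrl, adjusted p = 0.0309). EXPA16 lost its call without JA replicate 2 or any 1 of the ctrl libraries. The median of the list was 0.04, near that of all genes. XTH20, which cuts and joins xyloglucan, was the only called gene of 20 of its family and rose by 1.50, and without ctrl replicate 1, 2 genes of the family were called repressed.

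GASA6 (AT1G74670), a gibberellin-regulated growth gene, had 20.1, 43.9 and 18.2 CPM in JA, against 153, 208 and 102 CPM in ctrl (log2 fold change -2.50 ± 0.36, adjusted p = 0.00491), and it overlaps AT1G74675. BEE3 (AT1G73830), a bHLH factor of brassinosteroid growth, had 3.55, 0.905 and 1.41 CPM in JA and 6.37, 13.3 and 15.3 CPM in ctrl (log2 fold change -2.51, adjusted p = 0.0172). Without ctrl replicate 2, ctrl replicate 3 or JA replicate 3 its adjusted p was 0.0821, 0.0567 and 0.0624. The DELLA gene RGL3, a repressor of gibberellin responses, had 22.2, 12.5 and 5.02 CPM in JA and 3.03, 1.96 and 2.18 CPM in ctrl (log2 fold change 2.47, adjusted p = 0.0222), and it lost the call without JA replicate 1 (adjusted p = 0.0588) or any 1 of the ctrl libraries (0.0572 to 0.109). IAA19 (AT3G15540), an auxin-induced Aux/IAA gene, had 2.94, 2.72 and 2.04 CPM in JA and 7.43, 6.79 and 7.80 CPM in ctrl (log2 fold change -1.50, adjusted p = 0.0111), and without ctrl replicate 2 its adjusted p was 0.0546. It was the only one of 19 Aux/IAA genes to be called, and 5 were lower in JA when no fold was required. A negative log2 fold change was found for 18 of the 19.

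Of 19 SAUR genes tested, a family that auxin induces during cell expansion, 17 had a negative log2 fold change, with a median of -1.23 (-1.39 without JA replicate 1). Repressed calls were made for 4 of these 19, against 0.758% of all genes tested. SAUR16 (AT4G38860) had 11.6, 22.8 and 26.0 CPM in JA, against 43.1, 52.9 and 48.2 CPM in ctrl (log2 fold change -1.26, adjusted p = 0.0193), and at -0.98 without JA replicate 1 it was below 2-fold. SAUR24 (0.612, 0.453 and 0.470 CPM in JA, 1.52, 3.32 and 2.34 CPM in ctrl) and SAUR62 (0.857, 2.72 and 2.98 CPM in JA, 7.59, 11.0 and 6.24 CPM in ctrl) were also called. SAUR24 lost the call whichever library was left out (adjusted p = 0.0674 to 0.253). SAUR62 lost it without ctrl replicate 1, ctrl replicate 2 or JA replicate 2, and with the background of JA replicate 1 subtracted (adjusted p = 0.0705). How many were called depended on the libraries: 1 gene was called without JA replicate 1, none without ctrl replicate 2 and 1 or 2 without each of the other libraries. A fit that blocked the replicate number and left out JA replicate 1 called 13. That fit rests on pairs 2 and 3 alone, which leaves little to measure the spread.

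Clock genes changed in both directions. Of 22 tested, 7 were repressed and 5 were induced (7 and 3 without JA replicate 1), against 0.758% and 1.78% of all genes tested. Among them, 6 of the repressed but 1 of the induced genes, LUX, were called whichever library was left out. LHY (AT1G01060) and CCA1 (AT2G46830), the MYB factors of the morning, had 29.0, 24.0 and 26.5 CPM and 38.9, 53.6 and 44.2 CPM in JA, against 88.6, 106 and 116 CPM and 145, 170.2 and 125 CPM in ctrl. Their log2 fold changes were -1.96 ± 0.14 (adjusted p = 0.000147) and -1.69 ± 0.16 (adjusted p = 0.000531). RVE1 (AT5G17300), of the same MYB family and overlapping AT5G17305, had 4.16, 5.73 and 5.02 CPM in JA and 16.2, 21.7 and 11.5 CPM in ctrl (log2 fold change -1.74, adjusted p = 0.00527). LNK3, LNK4, RVE8 and LNK2, coactivators and activators that are also expressed early in the day, had log2 fold changes of -1.27, -1.23, -1.19 and -1.17. The induced members are known for expression later in the day. PRR5 (AT5G24470) had 50.2, 30.8 and 25.9 CPM in JA, against 10.3, 3.17 and 2.34 CPM in ctrl (log2 fold change 2.75 ± 0.46, adjusted p = 0.00954). ELF4 (AT2G40080), of the evening complex, had 9.55, 5.58 and 4.55 CPM in JA and 1.37, 1.21 and 1.56 CPM in ctrl (log2 fold change 2.25, adjusted p = 0.0103), and LUX, of the same complex, had 43.6, 35.5 and 30.6 CPM in JA and 15.6, 16.3 and 15.1 CPM in ctrl (log2 fold change 1.22, adjusted p = 0.00193). FKF1 (15.1, 5.88 and 4.55 CPM in JA, 2.28, 1.06 and 0.624 CPM in ctrl) and PRR3 (12.6, 4.53 and 4.08 CPM in JA, 1.82, 0.905 and 0.936 CPM in ctrl) lost the call without JA replicate 1 or ctrl replicate 3, PRR3 also lost it without ctrl replicate 1, and without ctrl replicate 2 LUX was the only clock gene called induced. GI and TOC1 passed the adjusted p below 2-fold (log2 fold changes 0.70 and 0.60), and LUX overlaps AT3G46650. The hour at which each group was collected is not given in the sources used here, and its part in these values was not tested.

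B-box factors, which act in light signalling and flowering, fell in 7 of 19 genes tested and rose in 1, against 0.758% and 1.78% of all genes tested. COL2 (AT3G02380) had 13.1, 18.7 and 19.8 CPM in JA, against 75.7, 78.0 and 57.1 CPM in ctrl (log2 fold change -2.04 ± 0.18, adjusted p = 0.000406), and COL1 (AT5G15850) had 13.0, 23.2 and 19.8 CPM in JA and 55.2, 66.0 and 45.7 CPM in ctrl (log2 fold change -1.58, adjusted p = 0.00341). Both overlap other genes. BBX16 (AT1G73870) had 7.10, 17.1 and 13.3 CPM in JA, against 54.3, 46.1 and 38.2 CPM in ctrl (log2 fold change -1.90 ± 0.27, adjusted p = 0.00444). BBX13 (AT1G28050) moved the other way, with 29.6, 18.0 and 15.5 CPM in JA and 7.13, 8.29 and 6.71 CPM in ctrl (log2 fold change 1.52, adjusted p = 0.00913). COL2, COL1 and BBX16 were the 3 called repressed without JA replicate 1, and they were also the 3 called repressed without ctrl replicate 2.

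**Figure D5:**
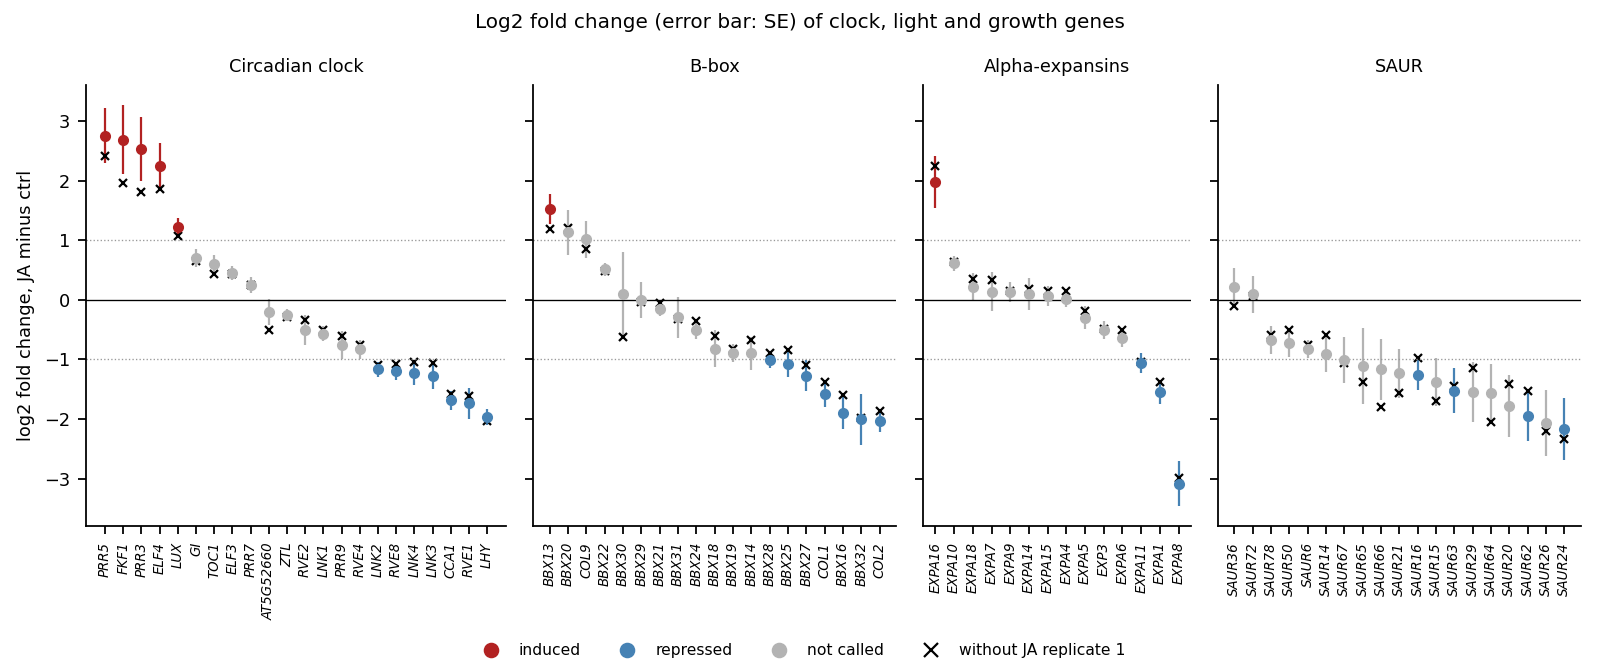
Log2 fold change (JA minus ctrl, bars of 1 SE) of clock genes, B-box genes, alpha-expansins and SAUR genes, with crosses for the values without JA replicate 1. LHY and CCA1 lie below -1, PRR5, FKF1, PRR3 and ELF4 lie above 2 with all libraries, and nearly all SAUR points are negative with wide bars.

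Other repressed genes included FRO6 (AT5G49730), a ferric reductase gene of green tissue, with 30.8, 50.7 and 55.8 CPM in JA, against 152, 248 and 108 CPM in ctrl (log2 fold change -1.89 ± 0.31, adjusted p = 0.00915). Its neighbour and near copy FRO7 had 25.6, 44.8 and 43.3 CPM in JA and 102, 131 and 67.6 CPM in ctrl (adjusted p = 0.017), and the counts of both were not whole. FRO7 lost the call without ctrl replicate 2 (adjusted p = 0.0751). KMD1 (AT1G80440), an F-box protein that targets cytokinin response regulators and phenylpropanoid enzymes, had 4.65, 8.90 and 5.02 CPM in JA, against 18.1, 30.5 and 23.3 CPM in ctrl (log2 fold change -1.96, adjusted p = 0.00415). AT5G02760, annotated as a type 2C protein phosphatase, had 5.26, 3.17 and 2.67 CPM in JA, against 13.2, 35.1 and 36.7 CPM in ctrl (log2 fold change -2.90 ± 0.41, adjusted p = 0.00421), and it overlaps its neighbours. AT1G55960 (23.7, 27.0 and 28.4 CPM in JA, 81.2, 197 and 104 CPM in ctrl) and MAKR6 (AT5G52900) (4.41, 7.09 and 7.21 CPM in JA, 18.7, 35.6 and 30.6 CPM in ctrl) fell by more than 4-fold, as did AT2G41250 and AT2G27420. PIL6 (AT3G59060), a phytochrome-interacting factor of shade growth, had 40.5, 60.8 and 70.9 CPM in JA and 105, 125 and 129 CPM in ctrl (log2 fold change -1.06, adjusted p = 0.0145), and without JA replicate 1 its log2 fold change was -0.86. PIL6 also lost the call without ctrl replicate 2 (adjusted p = 0.0736).

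The most extreme fold change among the repressed genes was that of a gene inside another gene. DIR1 (AT5G48485), a lipid transfer protein of systemic immunity, had no count in any JA library, against 80, 160 and 128 counts in the ctrl libraries, which makes it at least 132-fold lower in JA against a floor of 3 counts over the group. DIR1 (chr5:19646028-19646840, TAIR10.1) lies within AT5G48480, which had 52.0, 67.7 and 55.8 CPM in JA and 63.4, 56.5 and 49.8 CPM in ctrl, and its counts were not whole in 3 libraries. It was also at 0 in all 4 Set1 libraries, ctrl included. CIB1 (AT4G34530), a cryptochrome-interacting bHLH factor named after its values were seen, had no count in the JA libraries and 3.49, 6.94 and 3.28 CPM in ctrl, at least 32.4-fold lower. It shares 1 annotated end with AT4G34540 (20.8, 16.0 and 15.4 CPM in JA, 22.2, 18.7 and 14.0 CPM in ctrl), and in Set1 it had 0 and 0 counts in JA, against 23 and 13 in ctrl. JA replicate 1, which had counts in most unexpressed genes, had none in DIR1 or CIB1. How reads were divided between these overlapping genes was not tested.

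Photosynthesis and growth machinery showed no calls with all libraries, and none of the genes of these lists passed the adjusted p. With the replicate block, and likewise without ctrl replicate 1, 1 gene of chlorophyll synthesis was induced. Of 35 light-harvesting and photosystem genes, 35 had a negative log2 fold change with all libraries, with a median of -0.20, and without JA replicate 1 the median was -0.06. Within the numbered pairs their median log2 difference was -0.62 in pair 1, -0.049 in pair 2 and 0.074 in pair 3. Their summed level was 67004 CPM in JA replicate 1, 99914 and 87274 CPM in JA replicates 2 and 3 and 82506 to 108600 CPM in ctrl. The 16 Calvin cycle genes had a median of -0.32 (-0.19 without JA replicate 1) and the 17 genes of chlorophyll synthesis one of -0.15. None of 17 cell division genes was called, 16 of them had a positive log2 fold change, and their median was 0.21.

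Among the highest expressed genes that lost the call without JA replicate 1, AT1G14250, a nucleoside phosphatase gene whose counts were not whole, had 172, 223 and 101 CPM in JA and 49.9, 32.1 and 7.65 CPM in ctrl, with a log2 fold change of 2.47 with all libraries and 2.43 without JA replicate 1 (adjusted p = 0.0297 and 0.0733). PME3, a pectin methylesterase gene, had 332, 290.1 and 314 CPM in JA and 140.0, 135 and 190.4 CPM in ctrl, with log2 fold changes of 1.01 and 0.96. FBA5, an aldolase gene that overlaps AT4G26520, had 68.5, 112 and 82.0 CPM in JA and 219.8, 351 and 141 CPM in ctrl, with log2 fold changes of -1.44 and -1.29. Without JA replicate 1 the estimate moved little in these genes, and the call was lost at the threshold of p or of fold. These calls were also lost with other libraries left out. For AT1G14250 these were ctrl replicate 2 (adjusted p = 0.125) and JA replicate 2 (0.0814). PME3 lost the call without ctrl replicate 1, ctrl replicate 2 or JA replicate 3, and so did FBA5 (adjusted p = 0.0601, 0.0898 and 0.0974).

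The same question was asked of Set1, and a test of the set by treatment interaction over all 10 libraries asked whether the responses differed. Of 20213 genes tested, 0 (0%) passed an adjusted p of 0.05 in edgeR, with 1438 at an unadjusted p of at most 0.05, and DESeq2 called 136. With the replicate number as a block edgeR called 61, and without JA replicate 1 of Set2 it called 9. The smallest adjusted p of the interaction was 0.123 among the induced genes and 0.0673, for BBX28, among the repressed genes. Of the induced genes tested in Set1, 330 of 336 had the same sign there, and of the repressed genes 143 of 145. A fit of Set1 alone called 286 of the induced and 111 of the repressed genes. The share of same signs over all genes tested is not given here, so these counts have no background beside them.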

How the data were processed

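RNA was extracted from whole seedlings, and stranded mRNA libraries were sequenced. The authors aligned reads to TAIR10 with STAR 2.7.5a and quantified genes with RSEM 1.3.3, and the deposited values used here are RSEM expected counts and TPM for each of 32833 genes. Whether counting used strand is not given in the sources used here, so reads of overlapping genes may not be separated, and a count that is not whole marks reads shared between genes. Deposited edgeR tables of log2 fold changes and p-values from the authors' own comparison were not used.

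Expected counts were rounded. Genes were filtered by group, scaled by TMM and tested with the quasi-likelihood test of edgeR 4.0.16 (R 4.3.3), with Benjamini-Hochberg adjustment over all genes tested. SE is the absolute log2 fold change over the square root of F. Fits used only the 6 Set2 libraries, and the interaction used all 10. The 6333822 to 7774547 counts per library bound the precision for low genes, and intervals cover counting error only. On simulated counts of 32833 genes for this comparison, 43% of genes changed 2-fold and 97% of those changed 4-fold were recovered, with 12 false calls. Changed genes were drawn from those above a minimum mean count. Recovery meant a call, fold threshold included, and genes changed 2-fold lay at that threshold (median absolute log2 fold change 1.02).

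Same-numbered libraries deviated together (correlations of deviations from group means 0.214, 0.240 and 0.272), so the replicate number was treated as a possible pairing. Other pairs had -0.238 to -0.021, but deviations cancel within a group, so positive same-numbered values push those of other pairs down. The calls came from the fit without pairing, and so did their losses with 1 library left out, unless a block is named. A fit with the replicate number as a block was an alternative, in which 3 induced and 6 repressed genes lost the call. TPS04, MBP1, FKF1 and AT1G14250, which lost calls without single libraries, had adjusted p of 0.000343, 0.00293, 0.00177 and 0.0021 with the block. Other alternatives were DESeq2 1.42.0, limma 3.58.1 on log2 TPM, other scalings and filters, and leaving out each library.

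Gene lists and members were chosen with earlier results of these data known. Genes named were the 12 largest changes in each direction that held without JA replicate 1 at an average log2 CPM of at least 2, up to 4 called members per direction and 2 uncalled members of each list, and the 3 highest expressed genes per direction that lost the call without JA replicate 1. Other list members are named to complete a count, and were chosen after their values were seen. Motifs were searched as exact strings, CACGTG alone or with CACGTT and AACGTG, in RefSeq sequence (TAIR10.1). Intervals of shares are exact (Clopper-Pearson).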

Additional observations from a re-analysis of the deposited data

How the results depend on the processing

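Induced genes numbered 235 to 364 and repressed genes 71 to 145 when 1 library was left out, with the fewest in both directions without ctrl replicate 2 (repressed genes numbered 92 without JA replicate 1). With the replicate block there were 382 induced and 167 repressed genes, and the replicate block with JA replicate 1 left out gave 471 and 301. The blocked fit moved 2 list counts by over 1.5 times, WRKY factors and chlorophyll synthesis, each with 1 induced gene against 0. A test against a 2-fold change called 119 and 11 genes, and without adjustment of p, at the same fold threshold, 515 genes were induced. DESeq2, total-count scaling, no filter, a filter at 1 CPM, organelle genes left out, background subtraction and limma on TPM gave 284 to 392 induced and 117 to 191 repressed genes. Genes whose JA response differed between Set2 and Set1 numbered 0 in edgeR, 0 to 9 with 1 library left out (9 without JA replicate 1 of Set2, 6 without JA replicate 1 of Set1), 79 when no low genes were filtered out, 61 with the replicate block and 136 in DESeq2. With CACGTT and AACGTG counted beside CACGTG, the share of promoters with a motif was 43.7% of induced genes and 16.8% of all genes tested. The cause of these differences was not tested.

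Of 2280 values of 152 named genes under the alternatives, 2130 kept direction and call, 116 lost the call, 28 gained it and 6 changed sign. The sign changes were in genes not called: JAZ4 was at -0.19 (log2) with the replicate block and JA replicate 1 left out, and over the fits that left out 1 library JAZ11 ranged from -0.20 to 0.0741, AT4G34540 from -0.23 to 0.10 and AT5G48480 from -0.0735 to 0.14. Of 1564 list counts, 1424 stayed within 1.5 times. On simulated counts for this comparison, 43% of genes changed 2-fold were recovered. That change equals the fold threshold of a call, so this share does not measure depth alone.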
